A study of Mus musculus with 48 samples.

Results

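Interferon-stimulated genes are the genes that cells turn on when they sense interferon. The 46 members described here were a listed set of gene symbols, taken when they held at least 10 reads in 4 or more libraries of a read-count table of mouse striatum. All 46 listed symbols met that rule, out of 24060 genes in the table. Oas3 held at least 10 reads in 36 of the 48 libraries, the fewest of the members, and Zbp1 in 41.

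The libraries came from 24 mice of strain C57 in 3 experiments, and each mouse gave 1 precipitated and 1 input library. In the first experiment 4 mice received MPTP, a toxin of dopamine neurons, in 4 doses of 20 mg/kg, and 4 received vehicle. The label places the injection in the striatum. In the second, 4 SAPAP3 knockout mice, which lack a postsynaptic scaffold protein and groom excessively, were set against 4 wild-type littermates. In the third, 4 R6/2 mice given hM4Di, an engineered inhibitory receptor, were set against 4 R6/2 mice given a control cargo. R6/2 mice carry a fragment of mutant human huntingtin and are a model of Huntington's disease, so both groups of that experiment carried the transgene and no mouse without it is among the libraries of that experiment analysed here. All mice had received a virus carrying RiboTag, a tagged ribosomal protein (Rpl22-HA), in striatal astrocytes 3 weeks before RNA was taken. The promoter of that virus and the timing of any hM4Di agonist are not given in the sources used here. The input is the RNA of the cleared striatal lysate, from all cells, and the immunoprecipitate (IP) is the RNA bound to tagged ribosomes. The IP and input titles of MPTP mouse 2 carry different animal numbers, and the title of wild-type mouse 3 may join 2 animals. In bulk RNA, a change in the number of cells of a type and a change in RNA per cell cannot be told apart.

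Type I interferons bind a receptor whose kinases activate a complex that holds STAT2 and IRF9. This complex binds the interferon-stimulated response element (ISRE) in promoters, while interferon gamma acts on a different sequence, the gamma-activated site (GAS). The induced proteins sense viral nucleic acid, block steps of viral replication, or feed back on the pathway. Astrocytes express the receptors and respond to interferon in infected and inflamed brain.

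The promoters of 9 members are shown because they hold, or lack, the letters these complexes bind. The stretches run from 160 bases before to 10 bases after the annotated start of transcription, 5′ to 3′ on the strand of the gene, from RefSeq on build GRCm38.p6. Capitals mark every match, on either strand, to the ISRE core GAAANNGAA or the GAS core TTCNNNGAA.
Isg15, chr4:156200809-156200978, minus strand: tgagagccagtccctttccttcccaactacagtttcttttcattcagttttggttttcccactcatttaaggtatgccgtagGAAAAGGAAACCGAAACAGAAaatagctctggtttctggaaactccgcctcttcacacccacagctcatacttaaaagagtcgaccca
Ifit1, chr19:34640729-34640898, plus strand: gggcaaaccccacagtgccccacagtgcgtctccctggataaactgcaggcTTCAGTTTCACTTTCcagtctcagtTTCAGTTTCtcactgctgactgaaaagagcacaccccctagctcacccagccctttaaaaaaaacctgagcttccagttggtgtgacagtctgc
Ifit3, chr19:34583369-34583538, plus strand: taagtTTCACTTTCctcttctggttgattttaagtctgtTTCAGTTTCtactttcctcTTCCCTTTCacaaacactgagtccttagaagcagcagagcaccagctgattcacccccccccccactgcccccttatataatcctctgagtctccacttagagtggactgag
Bst2, chr8:71537463-71537632, minus strand: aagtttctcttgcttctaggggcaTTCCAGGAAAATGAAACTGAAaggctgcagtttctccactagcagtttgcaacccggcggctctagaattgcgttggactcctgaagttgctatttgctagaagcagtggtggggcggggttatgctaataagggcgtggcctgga
Oas1a, chr5:120907516-120907685, minus strand: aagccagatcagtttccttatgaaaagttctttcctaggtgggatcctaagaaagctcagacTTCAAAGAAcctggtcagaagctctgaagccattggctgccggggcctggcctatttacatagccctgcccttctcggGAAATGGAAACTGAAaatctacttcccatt
Igtp, chr11:58199396-58199565, plus strand: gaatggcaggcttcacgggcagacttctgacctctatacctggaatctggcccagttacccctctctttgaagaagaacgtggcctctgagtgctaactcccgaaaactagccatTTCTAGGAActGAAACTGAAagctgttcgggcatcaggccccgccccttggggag
Gbp2, chr3:142620503-142620672, plus strand: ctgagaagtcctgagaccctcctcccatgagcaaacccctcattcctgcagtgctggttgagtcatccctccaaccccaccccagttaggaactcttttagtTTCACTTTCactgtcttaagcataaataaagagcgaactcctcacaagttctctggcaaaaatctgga
Irf1, chr11:53769854-53770023, plus strand: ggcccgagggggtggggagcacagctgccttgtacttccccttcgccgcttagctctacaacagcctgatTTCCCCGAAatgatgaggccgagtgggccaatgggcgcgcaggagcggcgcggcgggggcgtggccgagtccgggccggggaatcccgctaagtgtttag
Xaf1, chr11:72301469-72301638, plus strand: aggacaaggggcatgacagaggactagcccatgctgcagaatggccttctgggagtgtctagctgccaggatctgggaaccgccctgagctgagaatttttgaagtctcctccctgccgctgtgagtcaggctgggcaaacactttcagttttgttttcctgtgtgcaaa
Isg15, Ifit1 and Ifit3 each held 3 ISRE cores, overlapping in Isg15 and partly in Ifit1. Bst2 and Oas1a each held 2 ISRE cores and a GAS core, and in Bst2 the GAS core overlapped the first ISRE core. Igtp held 1 of each, Gbp2 an ISRE core, Irf1 a GAS core and Xaf1 neither in this stretch. Promoter windows of 300 bases were found for 37 of the 46 members. The ISRE core stood in the windows of 22 of these 37 members, 59.5%, against 9.76% of 27025 genes with a window. The GAS core stood in 11 of the 37, 29.7%, against 9.55% of genes, and 7 members held both.

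The 46 members lay on 15 chromosomes, and 16 of them lay in 6 runs of neighbouring members. On build mm10 these were Ifit2, Ifit3 and Ifit1 (chr19:34550694-34650009), Gbp7, Gbp3 and Gbp2 (chr3:142530342-142638008), Oas2, Oas3 and Oas1a (chr5:120730333-120907521), Parp14, Dtx3l and Parp9 (chr16:35832874-35972605), Rsad2 and Cmpk2 (chr12:26442746-26479837), and Ifitm3 and Irf7 (chr7:141009586-141266481). Neighbouring paralogs of the Ifit, Gbp, Oas and Irgm families are similar in sequence, so reads may be split between them. Exons of 7 members overlap another annotated gene on the same strand, among them Igtp, which shares 162 bases with Irgm2. Exons of 10 lie over a gene on the opposite strand.

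Libraries held 34.3 to 61.5 M reads in genes in the IP and 21.9 to 39.0 M reads in the input. Dlgap3, the gene of SAPAP3, stood at 56.6 to 97.8 CPM (counts scaled to the library total) in knockout IP, against 172.5 to 229 CPM in wild-type IP. Chrm4, the mouse counterpart of the human receptor gene from which hM4Di was made, stood at 555 to 860 CPM in hM4Di IP, against 37.5 to 65.2 CPM in control cargo IP. All 16 astrocyte marker genes were higher in IP than in input in each experiment, and all 17 microglial markers were lower. Summed microglial markers stood at 57.7 to 193 CPM in IP, against 517 to 1648 CPM in input. Oligodendrocyte markers stayed in the IP: of 10, none was called lower in the MPTP experiment, 5 were called higher and none lower with SAPAP3 mice, and 1 was called lower with R6/2 mice. In R6/2 control cargo mice their sums were 2825 to 3980 CPM in IP, against 4306 to 5267 CPM in input.

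**Figure D1:**
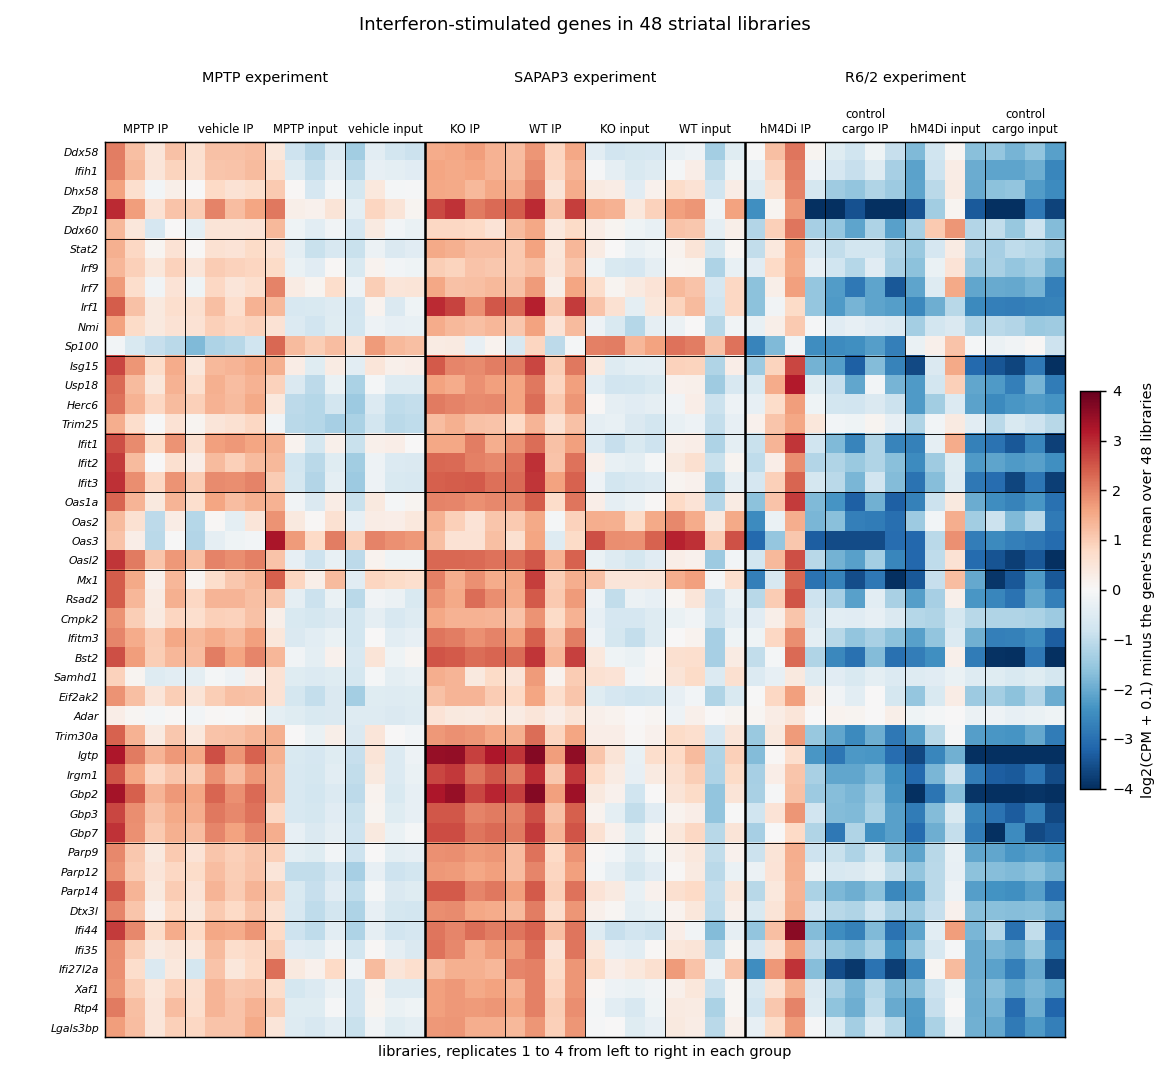
Levels of the 46 members (rows, grouped by role) in the 48 libraries (columns), as log2(CPM + 0.1) minus the mean of the gene over all libraries, with red higher and blue lower. Members were high together in the IP of the MPTP and SAPAP3 experiments and low in the control cargo libraries of the R6/2 experiment, and hM4Di mouse 3 stood above its group in most rows.

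Most members were more abundant in the RNA bound to tagged ribosomes than in whole striatum. A member was called between IP and input when its adjusted p was under 0.05 and its level differed by more than 2-fold. These fits held the condition and not the mouse, so the pairing of IP and input within a mouse did not enter their p-values or SE. By that rule 32 of 46 members were higher in IP and 2 were lower in the MPTP experiment, where 12.5% of all genes tested were higher and 14.0% lower. In the SAPAP3 experiment 37 were higher and 2 lower, against 11.9% and 13.0% of all genes. In the R6/2 experiment 25 were higher and 1 lower, against 11.3% and 12.3% of all genes. The median log2 fold change of the members was 1.41, 1.78 and 1.19 in these experiments, against -0.02, -0.00 and -0.02 over all genes. IP exceeded input in every one of the 8 mice for 38 members under MPTP and vehicle, 41 in knockout and wild-type mice, and 34 in R6/2 mice. The share of all genes with IP above input in all 8 mice was not counted here.

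The interferon-induced GTPases, which coat and attack the vacuoles of intracellular parasites, were all 5 higher in IP in each experiment. Gbp2 stood in the MPTP experiment at 279.8, 454 and 1089 CPM in IP (lowest, median and highest of 8 mice), against 52.9, 72.7 and 259.98 CPM in input, and the ranges did not overlap. Its log2 fold change was 2.29 ± 0.32 (SE) there, 2.93 ± 0.32 with SAPAP3 mice and 2.61 ± 0.40 with R6/2 mice. Ifit3, whose protein binds viral RNA with its IFIT partners, stood in the SAPAP3 experiment at 438, 748 and 1053 CPM in IP, against 56.4, 105 and 163 CPM in input. These ranges did not overlap either, and its log2 fold changes were 2.19, 2.73 and 2.36 in the MPTP, SAPAP3 and R6/2 experiments. Igtp, a GTPase also known as IRGM3, had log2 fold changes of 2.12, 2.55 and 2.14. Gbp3 had 2.09, 2.44 and 1.86. Ifi44, a cytoplasmic interferon-induced protein, had 2.07 and 2.62 in the MPTP and SAPAP3 experiments and did not pass in the R6/2 experiment (0.74 ± 0.84).

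A few members ran the other way. Sp100, a component of nuclear bodies, stood in the MPTP experiment at 0.519, 0.959 and 1.84 CPM in IP, against 3.10, 4.90 and 10.4 CPM in input. Its IP level was below its input level in all 8 mice of each experiment, and it was called lower in all 3 (log2 fold change -2.49, -1.86 and -2.18). Oas3, an oligoadenylate synthetase, whose product activates the antiviral ribonuclease RNase L, was called lower in the MPTP (-2.17 ± 0.35) and SAPAP3 (-1.57 ± 0.29) experiments and did not pass in the R6/2 experiment (-0.97 ± 1.01). Oas2 did not pass in any of the 3 (-0.46, -0.39 and -0.59). Adar, the RNA-editing enzyme, and Ddx60, a helicase, differed by less than the 2-fold rule in each experiment. Summed microglial markers were lower in IP than in input in every experiment, and their part in the low IP levels of Sp100 and Oas3 was not tested.

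**Figure D2:**
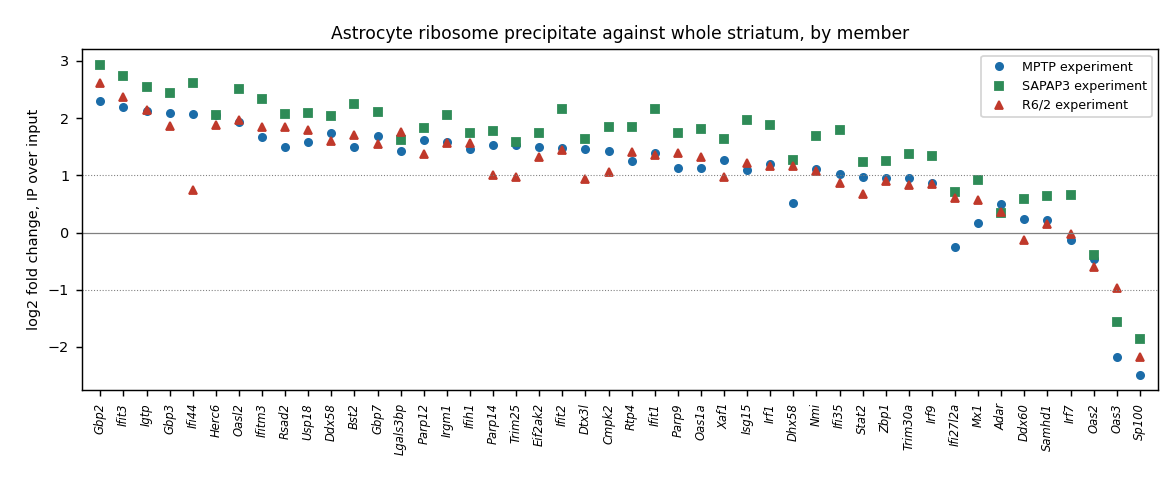
Log2 fold change of IP over input for each member in the MPTP (circles), SAPAP3 (squares) and R6/2 (triangles) experiments, with dotted lines at 2-fold. Gbp2 and Ifit3 lie above 2 in all 3, and Sp100 lies below -1.8 in all 3.

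Between genes, levels are given as the deposited FPKM, which divide reads by gene length and by library size. In vehicle IP the highest members were Ifit3 at 211 ± 57.2 FPKM (SD, n = 4), Igtp at 204 ± 69.4, Gbp2 at 158 ± 38.7, Ifitm3 at 134 ± 16.3 and Irgm1 at 102 ± 28.4 FPKM. The first 3 did not differ beyond their spread. The lowest were Sp100 at 0.335 ± 0.098, Oas2 at 0.292 ± 0.136 and Oas3 at 0.149 ± 0.048 FPKM. Wild-type IP held the same 5 members at the top, with Igtp at 422 ± 208 FPKM and Ifit3 at 328 ± 112 FPKM. In R6/2 control cargo IP the order was different. Adar ranked first there at 38.4 ± 2.47 FPKM, followed by Ifit3 at 28.5 ± 10.2 and Ifitm3 at 20.6 ± 3.62 FPKM, and Igtp ranked 10 of 46 at 8.47 ± 2.29 FPKM.

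Members stood lower in the R6/2 control cargo mice than in the controls of the other 2 experiments. Igtp stood at 14.6, 22.3, 21.4 and 13.0 CPM in R6/2 control cargo IP, against 312, 647, 368 and 558 CPM in vehicle IP and 797, 1393, 347 and 1269 CPM in wild-type IP. Ifit3 stood at 68.6, 40.4, 84.8 and 43.2 CPM in R6/2 control cargo IP, against 290.1, 542, 523 and 573 CPM in vehicle IP and 689.7, 1053, 438 and 743 CPM in wild-type IP. Neither gene's R6/2 control range touched the others. Of the 46 members, 44 in IP and 40 in input had all 4 R6/2 control values below all 8 values of vehicle and wild-type mice. The share of all genes that separate in this way was not counted here, so these counts cannot be read as particular to the members. The median member was 6.41-fold higher in vehicle than in R6/2 control cargo IP and 10.5-fold higher in wild-type than in R6/2 control cargo IP. In input these ratios were 3.93 and 5.50. The R6/2 transgene, the virus cargo and the experiment cannot be told apart in these levels, and no test was made between experiments. Summed microglial markers were also lowest in the R6/2 control cargo input, at 517 to 576 CPM, against 1245 to 1542 CPM in vehicle input and 857 to 1581 CPM in wild-type input. Markers of T and NK cells summed to 8.79 to 15.2 CPM in R6/2 control cargo input, against 64.0 to 67.1 CPM in vehicle input and 46.6 to 91.0 CPM in wild-type input. The same sums in IP were 4.29 to 11.1 CPM in R6/2 control cargo, 23.5 to 27.1 CPM in vehicle and 25.0 to 36.3 CPM in wild-type mice. Of the 12 genes listed, 2 held enough reads to be tested in the R6/2 input comparison. Markers of monocytes, macrophages and neutrophils summed to 7.70 to 9.29 CPM in R6/2 control cargo input, against 22.0 to 36.5 CPM in vehicle input and 18.2 to 44.1 CPM in wild-type input. The part of these cells was not tested.

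No member passed between MPTP and vehicle mice, in either fraction, and no gene of the whole table did (0% of all genes tested in IP and 0% in input). In IP 44 of 46 members had a log2 fold change above 0, with a median of 0.26, and in input all 46 did, with a median of 0.43, against 0.01 over all genes in each fraction. No member had an unadjusted p under 0.05 in either fraction with edgeR, and DESeq2 called no member. Sp100 stood at 1.84, 1.27, 1.01 and 0.906 CPM in MPTP IP, against 0.519, 0.804, 0.871 and 1.11 CPM in vehicle IP (log2 fold change 0.62 ± 0.29, adjusted p = 0.467). Mx1, a GTPase that blocks influenza virus, stood at 18.3, 9.86, 3.94 and 8.70 CPM in MPTP IP, against 3.68, 5.61, 7.20 and 8.39 CPM in vehicle IP (0.73 ± 0.41, adjusted p = 0.552). In both genes MPTP mouse 1 was highest and the groups overlapped. The other members with the smallest p in IP were Isg15 (0.63 ± 0.37), Oas3 (0.76 ± 0.47) and Oas2 (0.67 ± 0.49).

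In input, Mx1 stood at 18.1, 6.17, 4.01 and 8.26 CPM in MPTP mice, against 2.45, 6.27, 5.76 and 5.44 CPM in vehicle mice (0.87 ± 0.41, adjusted p = 0.606). Rsad2, the antiviral enzyme viperin, stood at 30.1, 10.7, 7.57 and 11.5 CPM in MPTP input, against 6.50, 12.6, 11.6 and 8.97 CPM in vehicle input (0.60 ± 0.36, adjusted p = 0.688). MPTP mouse 1 again stood alone above the rest. Oas2 (0.72 ± 0.35), Parp9, a partner of the ubiquitin ligase Dtx3l (0.48 ± 0.29), and Ifi35 (0.50 ± 0.31) were the other members with the smallest p, and none passed.

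MPTP mouse 1 was the highest of the 8 mice for all 46 members, in IP and in input. Its median member stood at 2.07-fold the vehicle mean in IP and 2.59-fold in input. The other 3 MPTP mice stood at 0.63- to 1.10-fold in IP and 0.80- to 1.10-fold in input, and the vehicle mice at 0.71- to 1.17-fold and 0.67- to 1.32-fold. Without MPTP mouse 1 the median log2 fold change was -0.12 in IP and -0.08 in input. The input of this mouse also held the highest summed microglial markers of its experiment, 1648 CPM, against 1245 to 1542 CPM in the other 7 inputs. Its summed markers of monocytes, macrophages and neutrophils were 57.7 CPM, against 22.0 to 36.5 CPM in the others. Its summed markers of T and NK cells were 81.3 CPM, against 53.5 to 67.1 CPM, and it held 37 reads of Ifng, interferon gamma, against 1 to 14 reads. The part of these cells in the result was not tested. The interaction of fraction with MPTP called 0 of 46 members and 0% of all genes, with a median of -0.15 and no member at an unadjusted p under 0.05 in edgeR. With the replicate as a block, although the titles of MPTP mouse 2 differ, it again called 0, with a median of -0.15 and 1 member at an unadjusted p under 0.05. DESeq2 without the block called 0.

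**Figure D3:**
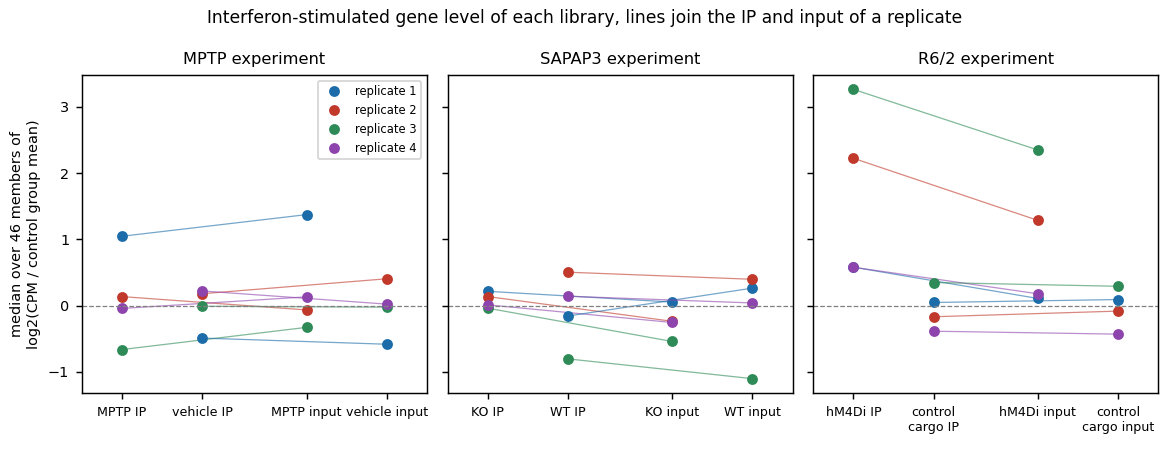
Median over the 46 members of log2(CPM / mean of the control group of the same experiment and fraction) in each library, with lines joining the IP and input of 1 replicate and colours for replicates 1 to 4. MPTP mouse 1 and hM4Di mice 2 and 3 stand above their groups in both fractions, and wild-type mouse 3 stands below its group in both.

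No member passed between SAPAP3 knockout and wild-type mice, where 0.0263% of all genes passed in IP and 0.00641% in input. The median log2 fold change of the members was 0.09 in IP, with 39 of 46 above 0, and -0.21 in input, with 1 of 46 above 0. No member had an unadjusted p under 0.05 in either fraction with edgeR, and DESeq2 called no member. Ifi27l2a, an interferon-induced mitochondrial protein, stood at 18.0, 21.8, 21.7 and 20.1 CPM in knockout IP, against 31.4, 32.4, 13.5 and 27.4 CPM in wild-type IP (-0.37 ± 0.23, adjusted p = 0.999). Parp14, an ADP-ribosyltransferase, stood at 211, 210.1, 147 and 165 CPM in knockout IP, against 121, 209, 74.4 and 171 CPM in wild-type IP (0.35 ± 0.26, adjusted p = 0.999). The knockout values lay inside the wild-type range for Ifi27l2a, and wild-type mouse 3 was the lowest for both. Ddx60 (-0.32 ± 0.21), Trim25, a ubiquitin ligase of the RIG-I pathway (0.22 ± 0.15), and Herc6, the mouse ligase for ISG15 (0.24 ± 0.19), were the others with the smallest p.

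In input, Ddx60 stood at 12.2, 10.9, 8.83 and 8.06 CPM in knockout mice, against 22.0, 21.3, 7.71 and 11.8 CPM in wild-type mice (-0.64 ± 0.31, adjusted p = 0.735). Ifit1, which binds uncapped or incompletely capped viral RNA, stood at 41.0, 31.8, 39.1 and 33.9 CPM in knockout input, against 69.6, 71.5, 25.7 and 45.3 CPM in wild-type input (-0.53 ± 0.27, adjusted p = 0.735). The knockout mice were alike, and the spread lay among the wild-type mice. Wild-type mouse 3 was the lowest of the 8 for all 46 members in IP and for 43 in input, at 0.573- and 0.466-fold the wild-type mean. Without it the median log2 fold change was -0.11 in IP and -0.45 in input, and no member passed. Its input held the lowest summed microglial markers of its group, 857 CPM, against 1288 to 1581 CPM, and 4 reads of Ifng, against 17 to 25. Their part was not tested. The interaction of fraction with genotype called 0 of 46 members and 0% of all genes, with a median of 0.31 and no member at an unadjusted p under 0.05 in edgeR, and DESeq2 called 0. With the mouse as a block it also called 0 members and 0 of 16059 genes tested. The blocked median was 0.30, with 45 of 46 members above 0 and 18 at an unadjusted p under 0.05. The share of all genes at that unadjusted p is not given here.

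Interferon-stimulated genes were higher in the RNA bound to tagged ribosomes of R6/2 mice with hM4Di than with control cargo. In IP 30 of 45 members tested passed as higher and none as lower, against 9.06% of all genes tested that were higher. All 45 had a log2 fold change above 0, with a median of 2.24, which is 4.73-fold, against 0.01 over all genes. For 28 of the 45 every hM4Di value lay above every control value, against 11.2% of all genes. The members ranged from 0.13 ± 0.11 for Adar to 5.18 ± 1.22 for Ifi27l2a. Oas3 was too low to be tested, with 2, 14, 117 and 1 reads in hM4Di IP, against 0, 0, 0 and 2 reads in control cargo IP.

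All 5 sensors of viral nucleic acid rose, by a median of 2.25 on the log2 scale. Ddx58, which encodes RIG-I, stood at 36.1, 84.4, 162 and 39.3 CPM in hM4Di IP, against 25.9, 21.1, 32.5 and 19.5 CPM in control cargo IP (1.73 ± 0.46, adjusted p = 0.0386), and Ifih1, which encodes MDA5, rose by 1.82 ± 0.51. The groups did not overlap for either gene, and mice 2 and 3 were the highest. Of the 6 transcription factors and nuclear regulators 3 passed. Irf7, the factor that amplifies interferon transcription, stood at 6.48, 23.6, 63.9 and 6.80 CPM in hM4Di IP, against 4.19, 2.70, 4.58 and 1.84 CPM in control cargo IP (2.95 ± 0.75, adjusted p = 0.0336), with no overlap. Irf9 (1.54 ± 0.43) and Irf1 (1.84 ± 0.51) were the other 2. Stat2, which joins IRF9 in the ISRE-binding complex, did not pass. It stood at 25.2, 67.8, 150.1 and 32.2 CPM in hM4Di IP, against 25.1, 30.2, 30.3 and 21.8 CPM in control cargo IP (1.38 ± 0.50, adjusted p = 0.0948), so that mouse 1 lay within the control range.

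Of the 4 genes of ISG15 conjugation, 3 passed. Isg15, the ubiquitin-like modifier itself, stood at 2.56, 13.4, 45.6 and 1.86 CPM in hM4Di IP, against 1.46, 0.653, 2.05 and 1.03 CPM in control cargo IP (3.63 ± 1.01, adjusted p = 0.0429), and the groups overlapped. Usp18, which removes ISG15 and damps the receptor, did not pass (2.78 ± 0.88, adjusted p = 0.0634). Of the 3 IFIT genes 2 passed, Ifit1 and Ifit3, whose promoters are printed above, and Ifit2 did not (1.94 ± 0.63, adjusted p = 0.0680). Ifit1 stood at 32.1, 153, 439.8 and 34.2 CPM in hM4Di IP, against 17.6, 9.45, 26.2 and 9.48 CPM in control cargo IP (3.42 ± 0.87, adjusted p = 0.0329). Ifit3 stood at 91.4, 283, 732 and 89.2 CPM in hM4Di IP, against 68.6, 40.4, 84.8 and 43.2 CPM in control cargo IP (2.36 ± 0.67, adjusted p = 0.0461). Neither gene overlapped between the groups. Of the 3 oligoadenylate synthetase genes tested 2 passed, Oas1a and Oasl2. Oasl2 stood at 41.2, 168, 409 and 31.7 CPM in hM4Di IP, against 18.2, 15.1, 26.2 and 11.1 CPM in control cargo IP (3.23 ± 0.79, adjusted p = 0.0291).

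Antiviral effectors split, with 3 of 9 passing. Ifitm3, a membrane protein that blocks viral entry, had the smallest p of all members. It stood at 32.3, 65.0, 133 and 28.1 CPM in hM4Di IP, against 16.8, 12.2, 14.9 and 11.6 CPM in control cargo IP (2.24 ± 0.47, adjusted p = 0.0178), and all 4 hM4Di mice lay above the controls. Bst2, the tetherin that holds budding virus on the cell, stood at 9.59, 18.4, 91.8 and 8.29 CPM in hM4Di IP, against 3.14, 2.33, 5.69 and 2.36 CPM in control cargo IP (3.26 ± 0.82, adjusted p = 0.0315). The groups did not overlap, and mouse 3 stood far above the next. Rsad2 did not pass (2.36 ± 0.79, adjusted p = 0.0752). Adar stood at 233, 271, 311 and 225 CPM in hM4Di IP, against 245, 236, 222 and 262 CPM in control cargo IP (0.13 ± 0.11, adjusted p = 0.460). Adar, Samhd1 (0.33 ± 0.20) and Cmpk2 (0.72 ± 0.34), named here for having the 3 lowest log2 fold changes, are an editing enzyme, a nucleotide hydrolase and a nucleotide kinase.

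Of the 5 GTPases 4 passed. Irgm1 stood at 36.8, 111, 198 and 37.2 CPM in hM4Di IP, against 21.8, 21.8, 27.4 and 17.0 CPM in control cargo IP (2.15 ± 0.53, adjusted p = 0.0297). Gbp3 stood at 39.4, 101, 237 and 40.5 CPM in hM4Di IP, against 20.5, 20.0, 28.7 and 15.3 CPM in control cargo IP (2.33 ± 0.57, adjusted p = 0.0287). Both were free of overlap, whereas Igtp rose by 2.27 ± 0.61 with mouse 4 inside the control range. Gbp2, the most IP-enriched member, did not pass (1.80 ± 0.55, adjusted p = 0.0576). Of the PARP and DTX3L genes 2 of 4 passed, and all 6 remaining induced genes did. Ifi27l2a stood at 1.36, 26.6, 59.5 and 2.41 CPM in hM4Di IP, against 0.598, 0.457, 0.936 and 0.503 CPM in control cargo IP (5.18 ± 1.22, adjusted p = 0.0254). Xaf1, a pro-apoptotic factor, stood at 12.7, 30.6, 53.1 and 13.2 CPM in hM4Di IP, against 7.99, 5.46, 8.92 and 5.53 CPM in control cargo IP (2.00 ± 0.46, adjusted p = 0.0240). Rtp4, a chaperone of receptor transport, stood at 9.66, 34.5, 65.1 and 11.5 CPM in hM4Di IP, against 5.34, 4.18, 8.02 and 4.00 CPM in control cargo IP (2.51 ± 0.60, adjusted p = 0.0274). None of these 3 overlapped, and in each the order of the hM4Di mice put 3 first and 2 second.

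**Figure D4:**
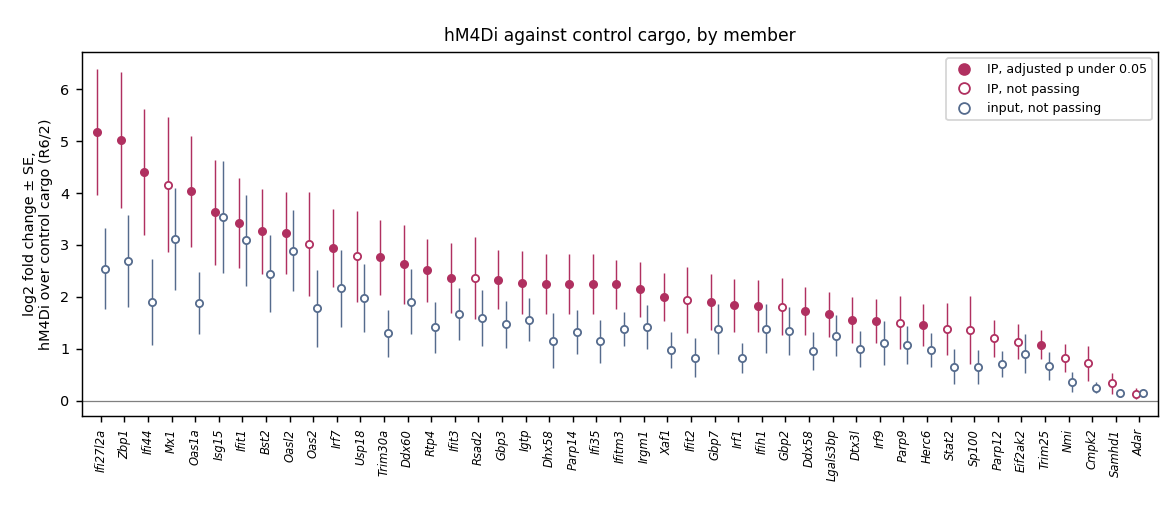
Log2 fold change of hM4Di over control cargo in R6/2 mice for each member tested, in IP (red) and input (blue), with bars of 1 SE and filled points for an adjusted p under 0.05. All points lie above 0, 30 are filled in IP and none in input.

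Of the members with an ISRE core in a promoter window 16 of 21 tested passed in hM4Di IP, with a median of 2.27, against 9 of 15 without one, with a median of 1.55. Of those with a GAS core 7 of 11 passed, with a median of 1.94, against 18 of 25 without one, with a median of 1.82. These counts are a description, since 9 members had no window in the table. Xaf1, which held neither core in its window, passed.

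The 4 hM4Di mice differed from each other more than the control mice did. Mouse 3 was the highest of the 8 for all 46 members in both fractions, and mouse 2 the second for 46 in IP and 45 in input. The median member stood at 9.60-fold the control mean in mouse 3, 4.67-fold in mouse 2, 1.50-fold in mouse 1 and 1.49-fold in mouse 4 in IP. In input the same mice stood at 5.09-, 2.44-, 1.08- and 1.13-fold. Control cargo mice stood at 0.77- to 1.27-fold in IP and 0.74- to 1.22-fold in input. Without mice 2 and 3, an alternative added after seeing the values, 4 members passed in IP against 2.52% of all genes. They were Ifitm3 (1.13 ± 0.14, adjusted p = 0.0123), Herc6 (0.49 ± 0.09, adjusted p = 0.0318), Dhx58, a RIG-I-like receptor (0.84 ± 0.16, adjusted p = 0.0383), and Irgm1 (0.76 ± 0.15, adjusted p = 0.0462), and the median was 0.62 in IP and 0.16 in input. In that fit 41 of the 45 members in IP stayed above 0, and Adar, Cmpk2, Sp100 and Samhd1 were below it, down to -0.12 for Sp100. Leaving out 1 mouse moved the count of 30 to 41 without hM4Di mouse 1, 1 without mouse 2, 11 without mouse 3 and 35 without mouse 4. It was 1, 2, 3 and 1 without control cargo mouse 1, 2, 3 and 4, and every one of the 45 members kept a log2 fold change above 0 in all 8 of these fits. The shares of all genes called in these 8 fits are not given here, so a loss of calls among all genes cannot be told from one among members.

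Other cell markers also moved between these IP groups. All 10 oligodendrocyte markers were higher in hM4Di IP, with sums of 5065 to 7269 CPM, against 2825 to 3980 CPM in control cargo IP. Of 14 markers of medium spiny neurons tested 9 were lower in hM4Di IP, with sums of 2246.5 to 2370 CPM, against 2660 to 4036 CPM in control cargo IP. Of 16 astrocyte markers 3 were lower, with sums of 20435 to 22022 CPM, against 25274 to 28547 CPM in control cargo IP. Neither of these sums overlapped between the groups. The share of all genes called lower in this comparison is not given here. None of 16 microglial markers tested passed, with sums of 61.3 to 70.8 CPM in hM4Di IP, against 57.7 to 63.9 CPM in control cargo IP. Endothelial and mural markers summed to 91.1, 134.9, 185 and 99.5 CPM in hM4Di mice 1 to 4, against 97.4 to 103 CPM in control cargo IP, with 1 of 16 higher and 1 lower. The log2 fold changes of these 16 genes had a median of 0.18 and ran from -0.38 to 5.02, so the sums need not stand for the whole list. The part of these cells in the result was not tested.

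**Figure D5:**
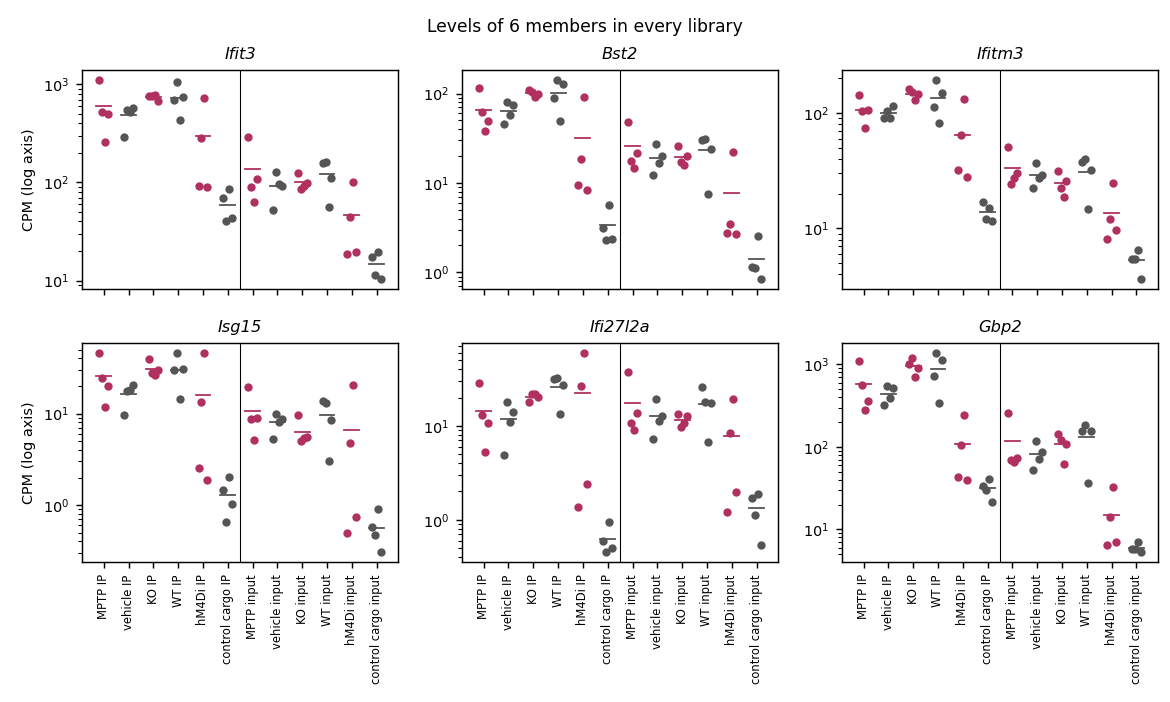
CPM (log axis) of Ifit3, Bst2, Ifitm3, Isg15, Ifi27l2a and Gbp2 in every library, 4 points a group with a line at the mean, IP groups left and input groups right of the vertical line. In hM4Di IP mice 2 and 3 (the second and the third point) are the highest for each gene, and the control cargo points lie below the vehicle and wild-type points of the same fraction.

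In input, no member passed between hM4Di and control cargo, where 0.0198% of all genes tested were higher. All 45 members tested were above 0, with a median of 1.34, and 39 had an unadjusted p under 0.05 with edgeR. The share of all genes with an unadjusted p under 0.05 in this fit is not given here. DESeq2 called no member. For 5 of the 45, Ifitm3, Oasl2, Bst2, Dtx3l and Irf1, the groups did not overlap, against 2.43% of all genes. Ifitm3 stood at 8.07, 12.1, 24.9 and 9.64 CPM in hM4Di input, against 5.47, 5.49, 6.49 and 3.68 CPM in control cargo input (1.38 ± 0.33, adjusted p = 0.407). Ifit1 stood at 9.06, 46.4, 169 and 9.20 CPM in hM4Di input, against 7.70, 5.64, 9.65 and 4.45 CPM in control cargo input (3.09 ± 0.88, adjusted p = 0.461). Mice 3 and 2 were again the highest, and the groups overlapped for Ifit1. Summed microglial markers were 588, 654, 724 and 627.4 CPM in hM4Di input, against 517 to 576 CPM in control cargo input, so that these groups did not overlap and mice 3 and 2 were the highest there too. None of the 17 microglial markers passed, 9 had an unadjusted p under 0.05, and for 5 the groups did not overlap. Monocyte, macrophage and neutrophil markers summed to 9.42 to 13.9 CPM in hM4Di input, with mouse 3 the highest, against 7.70 to 9.29 CPM in control cargo input. The part of these cells in the result was not tested. Oasl2 (2.89 ± 0.78), Igtp (1.56 ± 0.42) and Bst2 (2.45 ± 0.74) were the other members with the smallest p.

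The difference between hM4Di and control cargo was larger in IP than in input when each mouse was set against itself. With the mouse as a block, the interaction of fraction with cargo was positive and past the threshold for 35 of 46 members and negative for none, against 8.36% of all genes positive, with a median of 0.61. The 4 members with the smallest p were Xaf1 (0.96 ± 0.13, adjusted p = 1.54e-04), Ddx58 (0.72 ± 0.10, adjusted p = 1.80e-04), Gbp3 (0.76 ± 0.12, adjusted p = 4.69e-04) and Parp14 (0.81 ± 0.13, adjusted p = 6.05e-04). Without the block 0 of 46 passed in edgeR, against 1.90% of all genes positive, no member had an unadjusted p under 0.05, and the median was 0.72. The blocked count was 28 to 34 without any 1 mouse and 15 without hM4Di mice 2 and 3. The shares of all genes called in these reduced fits are not given here, and 8.36% belongs to the fit of all mice.

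Reads of the interferons themselves were few. Ifnl2 and Ifnl3 had 0 reads in all 48 libraries, which allows up to 3 reads in each. Ifnb1 had 0 to 3 reads in IP and 0 to 5 in input, and in hM4Di mice it was seen in mouse 3 alone, with 1 read in IP and 2 in input. Ifng had 0 to 5 reads in IP and up to 37 in input. In the R6/2 experiment Ifng had 4, 2, 2 and 2 reads in hM4Di input, against 0, 1, 0 and 0 in control cargo input.

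Genes of the pathway outside the members were counted in the same fits. Of 22 genes of interferon reception and signalling tested in hM4Di IP 7 rose and none fell, where 9.06% of all genes were higher. Ticam1, the adaptor of TLR3, had the smallest p (13.7 ± 0.98 CPM in hM4Di IP and 7.58 ± 0.60 CPM in control cargo IP, SD, n = 4 each, log2 fold change 0.87 ± 0.08, adjusted p = 0.00153). Socs3 and Socs1, inhibitors of receptor kinases, rose by 4.02 ± 0.93 and 1.87 ± 0.46, and Mavs, the adaptor of RIG-I, by 0.33 ± 0.08. No gene of this list passed in the other 5 comparisons of conditions. With the mouse as a block, the interaction of fraction with cargo passed as positive for 4 of 24 of these genes and as negative for 1, where 8.36% of all genes were positive.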

How the data were processed

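RNA of 24 mice was measured as IP and input libraries in 12 groups of 4, by a stranded kit with ribosomal RNA removed, per the labels' protocols. STAR, HTSeq and build mm10 are named in the submitters' processing notes, with versions and the strand setting of the counting not given in the sources used here. The deposited tables hold raw read counts per gene and FPKM values, and each FPKM value was found to equal its count over the column sum and a fixed length of the gene. Every sample column was matched to a sample by its title (0 unmatched). Counts of all genes were fitted in R 4.3.3 with the quasi-likelihood test of edgeR 4.0.16, after filterByExpr (minimum count 10) and TMM scaling, with Benjamini-Hochberg adjustment over all genes tested and a threshold of 0.05. Each comparison used the 8 libraries of its 2 groups, and the IP-against-input and interaction fits the 16 of the experiment. CPM shown were scaled by TMM over 48 libraries. The SE is the log2 fold change over the square root of the F statistic. Alternatives were RLE scaling, DESeq2 1.42.0, limma 3.58.1 on log2(FPKM + 1), other filters, the replicate number as a block, and libraries left out. The fit of hM4Di against control cargo in IP was also run on simulated counts with known changes. Those counts held no shift of many genes shared within a mouse, and the other fits were not run on simulated counts. Replicates are labelled as separate animals, so p-values of the comparisons of conditions measure the spread between these mice. The IP-against-input fits and the interactions without a block took the IP and input of a mouse as independent libraries, so their p-values do not measure that spread. The interactions with the mouse as a block rest on the spread of the IP-to-input difference between mice. The limit given for a count of 0 covers counting error only. No 2 libraries of a group agreed within sampling noise (72 pairs, chi-square per degree of freedom 3.99 to 91.4).

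The IP and input of 1 replicate come from the same mouse by their titles, except MPTP mouse 2. Their deviations from the group means correlated at 0.138 to 0.485 (MPTP and vehicle), 0.354 to 0.584 (SAPAP3 genotypes) and 0.458 to 0.705 (R6/2), so blocked values are given beside the interactions. Replicate numbers of 2 conditions do not mark shared animals.

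The members, the other gene lists and the tests were chosen with earlier results of these data known. Named were up to 8 members with the smallest p among those that passed in a comparison of conditions (5 with the smallest p where none passed), the 4 highest and 4 lowest IP-against-input members of each experiment, up to 4 members per interaction, and 19 members of central role for their levels. Of signalling and other interferon-induced genes up to 4 per comparison were named by p. Others named were chosen after their values were seen. Promoters are RefSeq windows of 250 bases before to 50 bases after a start on GRCm38.p6. One signalling gene is not reported here.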

Additional observations from a re-analysis of the deposited data

Results flagged for a closer look

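In groups of 4 mice, single values were sought that stood apart from the other 3. The measure was the gap between the extreme value and its neighbour over the range of the group, whose 95% critical value is 0.829. Of the values of named members that stood apart, 5 are described here, and they are not all. Irf1 in MPTP input 1 also stood apart, at 76.4 CPM against 19.8 to 21.6 CPM in the other MPTP inputs. So did Igtp there, at 292 CPM against 68.8 to 77.8 CPM. Chance alone flags about 1 in 20 groups, and over all members and groups 45 of 552 sets of 4, 8.15%, stood apart, 22 of them with MPTP input 1 as the high value. Bst2 in hM4Di mouse 3 stood apart in IP (0.879) and in input (0.961), above the other hM4Di mice and all controls. Ifi35 in MPTP input 1 stood apart as high (0.835). Isg15 in SAPAP3 knockout input 1 stood apart as high (0.884), at 9.60 CPM against 4.95 to 5.49 CPM in the other knockout inputs. Ddx60 in SAPAP3 knockout IP 4 stood apart as low (0.84), at 14.8 CPM against 17.5 to 18.0 CPM.

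The effect of hM4Di differed between IP and input for 35 members, by the interaction fitted with the mouse as a block, and was larger in IP for each. In hM4Di IP the oligodendrocyte markers were higher (10 of 10) and medium spiny neuron markers lower (9 of 14 tested), and their part in the difference between fractions was not tested.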

How the results depend on the processing

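Between hM4Di and control cargo in IP, where 30 members passed, limma on log2(FPKM + 1) called 7, leaving out 1 mouse gave 1 to 41, and leaving out hM4Di mice 2 and 3 gave 4. RLE scaling gave 30, DESeq2 39, no filter 30 and a mean CPM of at least 1 gave 30. With the replicate number as a block the count was 24, of which 22 were among the 30, although the numbers of 2 conditions do not pair mice (correlations -0.467 to 0.486 over the 3 experiments). The block left 0 members called between MPTP and vehicle and between SAPAP3 knockout and wild type. For hM4Di IP, shares of all genes called under the alternatives are not given here, apart from the fit without hM4Di mice 2 and 3. The interaction of fraction with hM4Di called 35 with the mouse as a block, 0 with no block and 15 without hM4Di mice 2 and 3. In the R6/2 experiment limma called 12 members between IP and input, against 26 with edgeR, and leaving out 1 mouse gave 23 to 28. Shares of all genes called by limma and in these reduced fits are not given here, so these counts are not to be read as particular to the members. The log2 fold change of Rsad2 in MPTP input ranged from -6.377e-05 without MPTP mouse 1 (adjusted p = 0.9999) to 0.82 without MPTP mouse 3. The cause of these changes was not tested. Counts of 0 between MPTP and vehicle and between SAPAP3 knockout and wild type were 0 under each alternative run, and in the SAPAP3 experiment also without the 2 mice with at least 1000 Xist reads in a library. At this depth Oas3, Zbp1 and Mx1 had under 10 reads in several R6/2 libraries.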

Other observations

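Interferon-induced genes outside the members were counted in the same fits. Of 31 of them tested between hM4Di and control cargo in IP, 11 rose and none fell, where 9.06% of all genes were higher, and in input none of 30 passed. Nlrc5, the activator of class I MHC genes, stood at 20.9 ± 15.6 CPM in hM4Di IP and 3.48 CPM in control cargo IP (log2 fold change 2.61 ± 0.52, SE, adjusted p = 0.0158). Trim30d (2.38 ± 0.52), Gbp9 (3.66 ± 0.88) and Irgm2 (2.31 ± 0.57), 2 of them from the families of GTPases among the members, had the next smallest p. None of this list passed between MPTP and vehicle or between SAPAP3 knockout and wild type in either fraction.

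Between IP and input, 19 of 39 of these genes were higher and 10 lower in the MPTP experiment, 22 and 8 of 39 in the SAPAP3 experiment, and 11 and 3 of 36 in the R6/2 experiment. Over all genes 12.5%, 11.9% and 11.3% were higher in these experiments and 14.0%, 13.0% and 12.3% lower. With the mouse as a block, the interaction of fraction with hM4Di was positive and past the threshold for 20 of 36, where 8.36% of all genes were.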
